A study of Schizosaccharomyces pombe with 28 samples.

Results

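Hybridisations 21 to 28 are 8 of the 28 two-channel spotted arrays of a fission yeast (Schizosaccharomyces pombe) series. In all 28, both channels held cDNA of independent samples of one wild-type strain, LJY1014 (h- leu1-32), in early-log phase in YES, a rich medium. Such an array is a self-self hybridisation: it sets one wild-type sample against another, with no treated and no mutant group. The strain carries a mutation in leu1, an enzyme gene of leucine synthesis, in all groups alike, and nothing beyond this single strain, medium and growth phase was analysed. The labels give no group, dye orientation or date that sets these 8 arrays apart from the other 20. They were set apart because earlier clustering of these same values joined them, so every contrast between the 8 and the other 20 is a description and carries no test.

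Each value is a log2 ratio of the channels after the array was centred on its median, averaged over the 2 probes of a gene, so 0 is the middle gene of an array. The labels do not say which channel is the numerator, and a sign therefore names no sample: "above 0" and "below 0" are sides of the deposited ratio. Whether hybridisations 21 to 28 and the other 20 arrays run the same way is likewise unknown, and every contrast between them below takes the deposited signs as they stand. With the sign of the other 20 arrays turned, no member that lay outside their range remained outside it on the same side. Members were selected on the centred log2 ratios of these 8 arrays themselves: a gene was taken when both of its probes lay on the same side of 0 in all 8 arrays, which is 16 values. Of 4929 gene identifiers, 194 met this rule, 109 above 0 (2.21% of all identifiers) and 85 below 0 (1.72%). The rule used these values, and nothing is read from the counts. A single gene name was available for 189 of the members. In these bulk cultures, fewer cells of a kind and less RNA per cell cannot be told apart, and a ratio gives no level, so neither the mating type nor the marker could be checked by presence. The ratio of leu1 ran from -0.38 through a median of 0.08 to 0.50 in hybridisations 21 to 28, and the 11 M-cell and P-cell genes had a median of -0.05 with no member among them.

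Fission yeast takes up iron through a reductase, a ferroxidase and permease pair, and siderophore carriers, whose genes the GATA-type factor Fep1 represses when iron is plentiful. Copper enters through the Ctr4-Ctr5 complex, which the factor Cuf1 switches on when copper is scarce, and copper is a cofactor both of the ferroxidase and of the superoxide dismutase Sod1. A further set of genes, the core stress response, is switched by the kinase Sty1 and the factor Atf1 under many stresses, while chaperone genes follow the heat shock factor Hsf1. Growing cells otherwise devote much of their transcription to ribosomal proteins and glycolysis. All of this is background and not a result of these arrays.

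Single genes of iron uptake, copper transport, superoxide defence, chaperones and the core stress response were among the widest departures. Their whole lists lay nearer to 0. The medians of the list means were, in that order, 0.08, -0.06, 0.02, 0.24 and 0.09, against 0.25 for glycolysis. Among the members above 0, the size of the mean had a median of 0.24 and ran from 0.087 to 0.87 on the log2 scale. Means of at least 0.5 were found for 11 of them, and of at least 0.3 for 38. Members below 0 lay nearer the middle: their means had a median size of 0.23 and ran from 0.077 to 0.73, with 3 genes at 0.5 or more and 14 at 0.3 or more. The SD of a member over the 8 arrays had a median of 0.095 on either side, against 0.107 for all genes. The rule favours genes of small spread in these arrays, so nothing is read from this difference. In 30 members above 0 and 11 below, every one of the 16 values was at least 0.1 from 0. At the edge of the rule, srp54 (weakest value 0.0014, mean 0.17) and tif302 (0.0015, mean 0.19) were just inside above 0, whereas vps26 (0.0, mean 0.14) and pre4 (0.0, mean 0.17) were just outside. Below 0, spc2 (weakest value -0.0014, mean -0.22) and dpm3 (-0.0014, mean -0.19) were just inside, and SPAC926.06C (0.0, mean -0.17) and exo1 (0.0, mean -0.18) just outside.

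**Figure D1:**
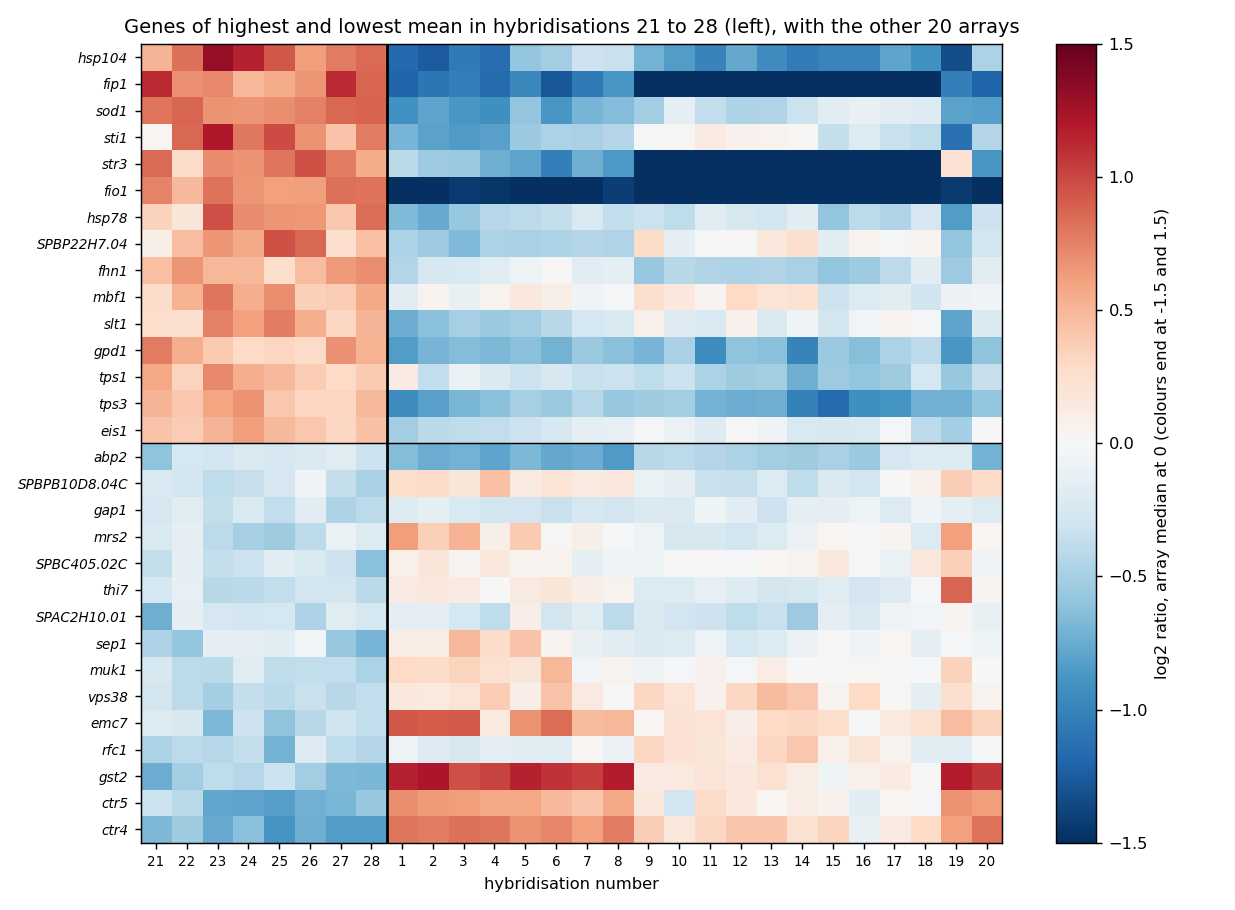
Log2 ratio (colour, ending at -1.5 and 1.5) of the 15 named members with the highest and the 15 with the lowest mean, 1 row per gene and 1 column per array, with hybridisations 21 to 28 left of the black line and the other 20 arrays right of it. The rows above the line are positive and the rows below it negative in all 8 arrays on the left, while on the right hsp104, fip1 and fio1 are below 0 throughout and abp2 is below 0 in all 28.

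With the deposited signs, the largest differences between the array sets were those of iron uptake genes. Of 13 measured genes of iron uptake and the Fep1 regulon, 5 were members above 0 and none below (2.21% and 1.72% over all identifiers). The ferroxidase gene fio1 (SPAC1F7.08) ran from 0.49 through a median of 0.70 to 0.83 in hybridisations 21 to 28, against -2.56, -1.92 and -1.41 for the lowest, median and highest of the other 20 arrays. No array of either set reached the range of the other set, and the means differed by 2.65 log2 units (0.70 ± 0.12, SD, n = 8, against -1.95 ± 0.47, n = 20). Its partner, the iron permease gene fip1 (SPAC1F7.07C), is the adjacent gene on chromosome I in the RefSeq annotation of assembly ASM294v3. It lay at 0.50, 0.70 and 1.12 (lowest, median, highest) in hybridisations 21 to 28 and at -2.50, -1.68 and -0.87 in the other 20, a difference of means of 2.45. Hybridisations 21 and 27 held the highest fip1 ratios, both 1.12, and hybridisation 24 the lowest. With the sign of the other 20 arrays turned, the fio1 means differed by -1.26, the 8 arrays then lying below the others, and the fip1 means by -0.89 with overlap.

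Of the 5 measured genes str1, str2, str3, abc3 and shu1, which encode carriers, str3, abc3 and str1 were members. The haem transporter gene str3 (SPAC1F8.03C) had 0.28, 0.74 and 0.96 in hybridisations 21 to 28, with hybridisation 22 well under the rest, and -2.16, -1.39 and 0.21 in the other 20. Only hybridisation 19 of the other 20 was above 0 for str3, and it still lay under the lowest of the 8. The vacuolar ABC transporter gene abc3 (SPBC359.05) had 0.29, 0.44 and 0.53 against -1.42, -0.68 and 0.12, again without overlap. The siderophore carrier gene str1 (SPBC4F6.09) had 0.24, 0.34 and 0.48 in hybridisations 21 to 28, but its range in the other 20, from -1.90 through -0.81 to 0.73, enclosed them. The other 20 arrays were themselves split for this gene, with a mean of 0.13 in hybridisations 1 to 8, 19 and 20 and of -1.60 in hybridisations 9 to 18.

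The ferric reductase gene frp1 (SPBC1683.09C) missed the rule through its second probe, which was above 0 in 6 of the 8 arrays, while the first was above 0 in all 8. Its average over both probes was 0.27, 0.46 and 0.84 in hybridisations 21 to 28, against -2.49, -1.62 and -0.51 in the other 20. By this average frp1 did not overlap the other 20, as fio1, fip1, str3 and abc3 did not. The remaining 7 genes of the list were no members: the ferrichrome synthesis genes sib1 and sib2 had means of 0.06 and 0.08, the iron-responsive repressor subunit gene php4 had 0.04, the haem transporter gene shu1 had -0.03, the carrier gene str2 had -0.04, and the repressor gene fep1 had -0.13. The second reductase gene frp2 had -0.68, -0.15 and 0.06 as lowest, median and highest, with a mean of -0.43 in hybridisations 21, 22, 27 and 28 and of 0.02 in hybridisations 23 to 26. The list median of the means was 0.08 in hybridisations 21 to 28, against 0.00 for all genes, and -0.35 in the other 20, against 0.02 for all genes.

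Genes of iron-sulphur assembly, iron-sulphur enzymes and iron storage were 18 in number, of which none met the rule; with 2.21% and 1.72% of all identifiers meeting it, a list of this size shows nothing by that. The median of their means was 0.04 (0.15 in the other 20 arrays). The vacuolar iron transporter gene pcl1 (SPBC1683.10C) was the exception by range: it lay at -0.40, -0.24 and -0.07 in hybridisations 21 to 28, against 0.06, 0.41 and 0.84 in the other 20. Its side was opposite to that of the uptake members fio1 and fip1 in both sets of arrays. The scaffold gene isu1 had 0.11, 0.33 and 0.38 in hybridisations 21 to 28 and -0.89, -0.34 and 0.16 in the other 20, with a small overlap.

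Copper uptake and superoxide dismutase lay on opposite sides of 0. The copper transporter gene ctr4 (SPCC1393.10), the lowest of all members, had -0.89, -0.74 and -0.53 (lowest, median, highest) in hybridisations 21 to 28 and -0.11, 0.51 and 0.83 in the other 20, so its means differed by -1.23. Its partner ctr5 (SPAC1142.05) had -0.83, -0.70 and -0.32, against -0.28, 0.35 and 0.69, a difference of -0.95. The ranges of neither gene overlapped, and for ctr5 hybridisations 21 and 22 lay nearest to 0. The vacuolar copper transporter gene ctr6 missed the rule with 1 array above 0 by its second probe, had a mean of -0.20 and overlapped the other 20. The 6 other copper genes, among them cuf1 (mean -0.02), the chaperone genes atx1 (-0.04), cox17 (-0.06) and ccs1 (-0.11), were no members. The copper list of 9 genes had a median of -0.06.

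The copper-zinc superoxide dismutase gene sod1 (SPAC821.10C) combined a large departure with a small spread. It ran from 0.66 through 0.78 to 0.89 in hybridisations 21 to 28 (mean 0.78 ± 0.09, SD, n = 8), against -0.92, -0.55 and -0.11 in the other 20, a difference of 1.32. The glutathione S-transferase gene gst2 (SPCC965.07C) stood opposite, at -0.74, -0.53 and -0.32, against -0.06, 0.60 and 1.21. The other 20 arrays fell into levels of their own for gst2, with means of 1.11 in hybridisations 1 to 8, 19 and 20 and 0.11 in hybridisations 9 to 18. Both genes were without overlap. Of 19 genes of superoxide and peroxide defence, sod1 was the single member above 0 and the glutaredoxin gene grx3 (mean -0.23 ± 0.09) the single member below. Over all identifiers, 2.21% were members above 0 and 1.72% below. The mitochondrial superoxide dismutase gene sod2 had a mean of 0.02, the catalase gene ctt1 0.19, the peroxiredoxin gene tpx1 0.16 and the oxidative stress factor gene pap1 -0.06. Probe means differed for ctt1 (0.08 and 0.30) and tpx1 (0.07 and 0.26). Across the other 20 arrays the probes of these genes were correlated at -0.78 and -0.72, so their averages are uncertain. The largest means among the other genes of this list were those of obr1 (-0.30, from -0.57 to 0.00) and the glutathione peroxidase gene gpx1 (0.23, from 0.02 to 0.51). The mitochondrial thioredoxin gene trx2 was no member by its probes, yet its average, -0.33, -0.16 and -0.05, lay below that of the other 20 (0.09, 0.27 and 0.44). Among 12 glutathione genes, gst2 was the only member, and among 7 zinc genes there was none. Lists of this size show nothing by these counts.

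**Figure D2:**
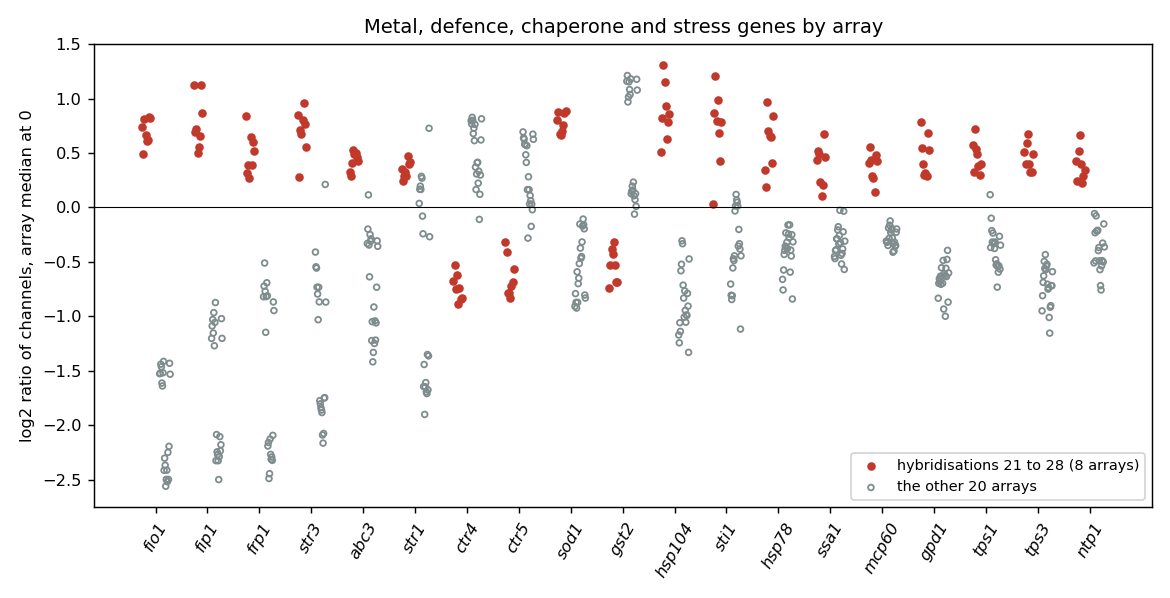
Log2 ratio (vertical axis, array median at 0) of iron, copper, defence, chaperone and stress genes, 1 point per array, with hybridisations 21 to 28 as filled red points left of the other 20 arrays as open grey points. For fio1 the 8 arrays lie between 0.49 and 0.83 and the other 20 between -2.56 and -1.41, for ctr4 they lie between -0.89 and -0.53 and between -0.11 and 0.83, and str1 and sti1 are genes whose sets overlap.

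Chaperone genes leaned above 0. The disaggregase gene hsp104 (SPBC16D10.08C) had the highest mean of all members, 0.87 ± 0.26 (SD, n = 8), with 0.51, 0.84 and 1.31 as lowest, median and highest. In the other 20 arrays it had -1.33, -0.92 and -0.31, so the means differed by 1.73. The Hsp90 co-chaperone gene sti1 (SPCC645.14C) had the largest spread of all members, an SD of 0.36: it was 0.03 in hybridisation 21 and 1.20 in hybridisation 23, with a median of 0.79. Its other 20 values, from -1.12 through -0.41 to 0.12, overlapped the 8 through hybridisation 21. The mitochondrial disaggregase gene hsp78 (SPBC4F6.17C) had 0.18, 0.66 and 0.97, against -0.84, -0.37 and -0.16. Hybridisation 23 was the highest array for hsp104, sti1 and hsp78 alike, and hybridisation 21 the lowest for hsp104 and sti1.

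Smaller departures covered the Hsp70 and Hsp60 classes. The cytosolic Hsp70 gene ssa1 had 0.11, 0.45 and 0.68 in hybridisations 21 to 28 and -0.57, -0.33 and -0.03 in the other 20. The mitochondrial Hsp60 gene mcp60 had 0.14, 0.42 and 0.56, against -0.41, -0.30 and -0.12. The small heat shock gene hsp16 (mean 0.31, against -0.46) and the ER Hsp70 gene bip1 (0.25, against -0.25) were also outside the range of the other 20. Of 22 cytosolic and ER chaperone genes, 5 were members above 0 and none below (2.21% and 1.72% over all identifiers). A mean above 0 was found for 19, and the list median was 0.24, with array medians from 0.06 to 0.32. In the other 20 arrays the list median was -0.17. The DnaJ-type gene psi1 missed the rule through a single probe value of -0.11, but its average ran from 0.36 through 0.72 to 1.03, against -1.05, -0.77 and -0.48. The gene of Hsp90 itself, hsp90, was just below 0 in hybridisation 21 (-0.03) and had a mean of 0.34, and the gene of the factor hsf1 had 0.07.

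The CCT chaperonin is the ring that folds actin and tubulin. Members above 0 were cct1, cct4, cct5, cct6 and cct7, with means from 0.19 to 0.30. That is 5 of its 8 subunits (2.21% over all identifiers), whereas cct2 (0.12), cct3 (0.21) and cct8 (-0.01) missed the rule. The list median was 0.23 in hybridisations 21 to 28 and 0.12 in the other 20. None of the 8 genes lay outside the range of the other 20, where 1.42% of all identifiers lay above it and 1.12% below. A list of 8 genes shows nothing by that. The 6 mitochondrial chaperone genes, with mcp60 and hsp78 as members, had a list median of 0.22, against -0.06 in the other 20.

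The core stress members were gpd1, tps1, ntp1, atf1, ish1 and the heat shock gene hsp16, of which gpd1 serves glycerol and tps1 and ntp1 trehalose metabolism. The glycerol-3-phosphate dehydrogenase gene gpd1 (SPBC215.05), which serves glycerol synthesis in osmotic stress, had 0.29, 0.46 and 0.78 in hybridisations 21 to 28 and -0.999, -0.63 and -0.39 in the other 20. The trehalose-phosphate synthase gene tps1 had 0.30, 0.44 and 0.72, against -0.73, -0.36 and 0.12, and tps3, a member outside the list, 0.32, 0.45 and 0.68, against -1.15, -0.71 and -0.43. These 3 genes did not overlap, and gpd1 was highest in hybridisations 21 and 27 (0.78 and 0.68), as fip1 was. The neutral trehalase gene ntp1 had a mean of 0.39, against -0.38, the transcription factor gene atf1 0.30, against -0.40, and ish1, a nuclear envelope protein gene, 0.23, against -0.27. All 3 lay outside the range of the other 20.

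The core stress list held 25 measured genes, of which 6 were members above 0 and none below (2.21% and 1.72% over all identifiers). Of the 25, 10 lay above the range of the other 20 arrays, as 1.42% of all identifiers did. Its median was 0.09 in hybridisations 21 to 28 and -0.15 in the other 20. The list was not uniform: the kinase genes sty1 (-0.01) and wis1 (-0.11), the phosphatase gene pyp2 (-0.03), the trehalose-phosphate phosphatase gene tpp1 (-0.01) and the calcium pump gene cta3 (-0.01) all had means close to 0. hsp9, whose small heat shock product is a common stress marker, had 0.08, 0.35 and 0.85, above the other 20 (-0.60, -0.23 and 0.06), but was no member by its probes.

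**Figure D3:**
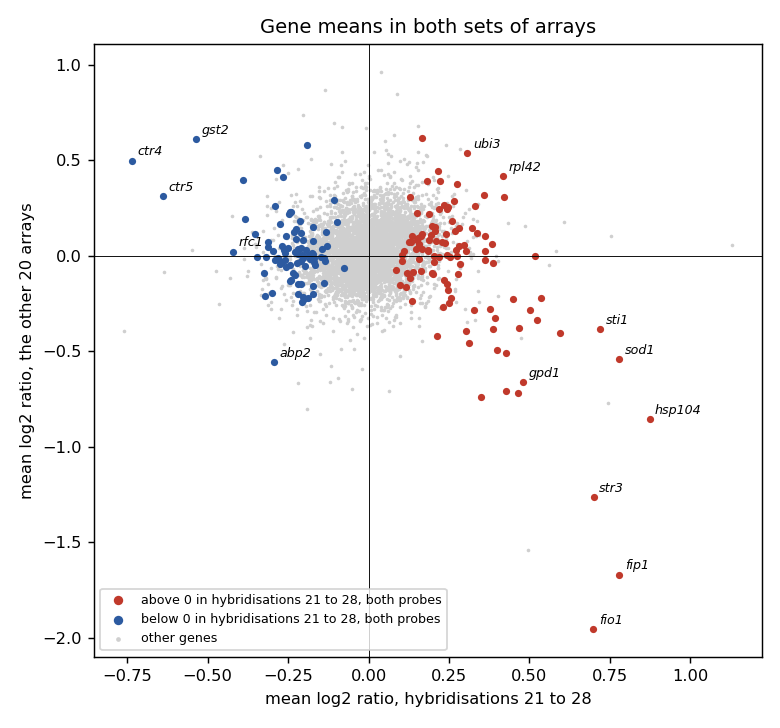
Mean log2 ratio of each gene in hybridisations 21 to 28 (horizontal axis) against the other 20 arrays (vertical axis), 1 point per gene, with members above 0 in red and below 0 in blue. fio1, fip1, str3 and hsp104 lie far to the lower right, ctr4, ctr5 and gst2 to the upper left, and ubi3 and rpl42 are above 0 in both.

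Protein turnover and synthesis supplied many members of moderate size. Of 35 proteasome genes, rpt1, rpt2, rpt4 and rpt6 (ATPase subunits of the base), pre3 (a core particle subunit) and dss1 were members above 0, and rpn1301 (mean -0.08) was below. Over all identifiers, 2.21% were members above 0 and 1.72% below. rpt6 had 0.15, 0.33 and 0.68 in hybridisations 21 to 28, against -0.47, -0.15 and 0.53 in the other 20, so its sets overlapped. Of these 7, rpt2 alone lay outside the other 20 (means 0.20 and -0.03), where 1.42% of all identifiers lay above that range. The proteasome list had a median of 0.12, against 0.10 in the other 20, with array medians from 0.03 in hybridisation 27 to 0.25 in hybridisation 24. cdc48, whose AAA ATPase feeds unfolded proteins to the proteasome, had a mean of 0.39. Translation initiation factor genes were 6 of the members above 0, of 42 measured translation factor genes (2.21% over all identifiers). They were tif5 (mean 0.36), tif303 (0.28), tif471 (0.27), tif52 (0.24), tif302 (0.19) and tif223 (0.11). None of these 6 lay outside the range of the other 20, where 1.42% of all identifiers lay above it.

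Ribosomal protein and glycolysis genes split the 8 arrays. Large-subunit genes had array medians of 0.39, 0.20, 0.35 and 0.21 in hybridisations 21, 22, 27 and 28, but 0.03, 0.03, -0.09 and -0.14 in hybridisations 23, 24, 25 and 26. Small-subunit genes followed, at 0.39, 0.26, 0.37 and 0.28 and then at 0.01, -0.01, -0.11 and -0.11. Of the 79 large-subunit genes 3, and of the 44 small-subunit genes 2, were members above 0 (2.21% over all identifiers), namely rpl42 (mean 0.42 ± 0.07), rpl902 (0.27), rpl3202 (0.18), rps2401 (0.33) and rps2402 (0.22). The paralogues of a ribosomal protein are close in sequence, and the arrays may not keep them apart. The 12 glycolysis genes had medians of 0.45, 0.30, 0.50 and 0.42 in hybridisations 21, 22, 27 and 28, against 0.09, -0.02, 0.01 and 0.09 in hybridisations 23 to 26. All 12 had a mean above 0, but the glucose-6-phosphate isomerase gene pgi1 (mean 0.23) was the only member.

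The same split showed over all genes. Pearson correlations across genes, which are not independent replicates, ran from 0.511 to 0.705 (median 0.657) among hybridisations 21, 22, 27 and 28 and from 0.551 to 0.732 (median 0.597) among hybridisations 23 to 26. Between these quartets they ran from -0.017 to 0.46 (median 0.303). With the other 20 arrays they ran from -0.252 through a median of -0.011 to 0.388. The quartets were seen in the data and are not given by the labels. Of members above 0, 41 of 109 (37.6%) were larger in hybridisations 21, 22, 27 and 28 than in hybridisations 23 to 26, and of members below 0, 49 of 85 (57.6%) were. leu1 also followed the quartets, with means of 0.34 and -0.19, and the actin gene act1 had 0.17 and 0.04. Hybridisation 25 held the highest value of 25 members above 0 and hybridisation 24 that of 22, and 31 of the members below 0 were lowest in hybridisation 28. Among hybridisations 21 to 28, hybridisation 28 also had the largest SD over genes, 0.1964, and hybridisation 22 the smallest, 0.1495. Shares over all genes are not given for the quartet counts or for these extremes, so nothing is read from them.

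**Figure D4:**
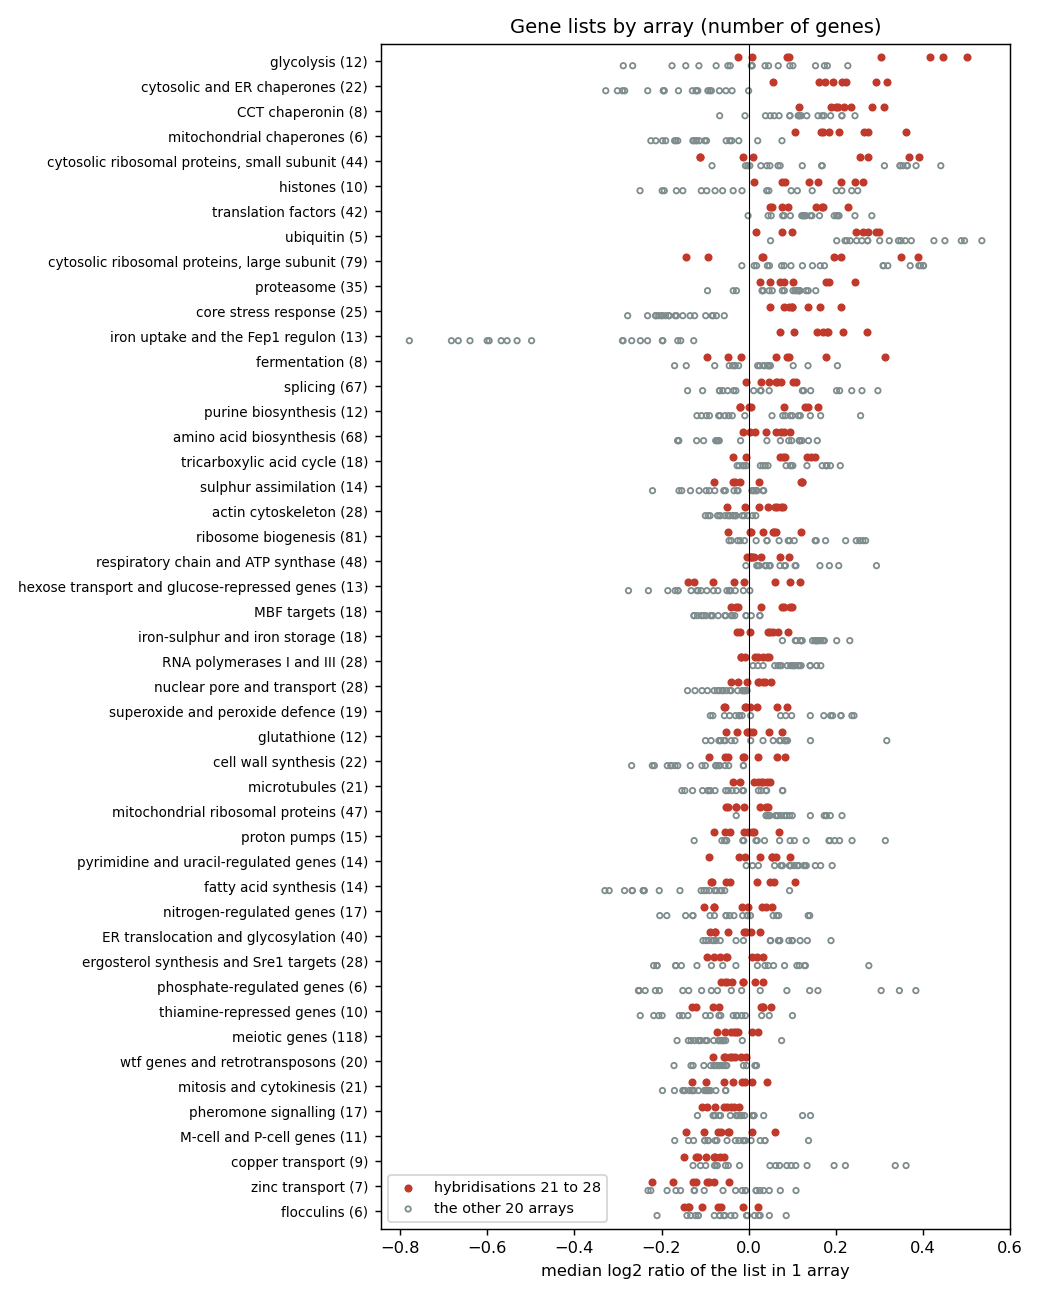
Median log2 ratio (horizontal axis) of each gene list in each array, 1 point per array, with hybridisations 21 to 28 in filled red above the other 20 arrays in open grey, and the number of measured genes in brackets. Iron uptake, cytosolic and ER chaperones, mitochondrial chaperones and core stress genes have all 8 red points right of every grey point, while glycolysis and both ribosomal protein lists spread the red points widely, from -0.02 to 0.50 for glycolysis.

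Further members above 0 had other roles. mbf1, the gene of a conserved transcriptional coactivator, had 0.28, 0.53 and 0.81 in hybridisations 21 to 28 and -0.32, 0.01 and 0.30 in the other 20, with a slight overlap. slt1 (SPAC17G6.13) had 0.23, 0.53 and 0.77, against -0.79, -0.23 and 0.08. SPBP22H7.04 had 0.09, 0.52 and 0.95, highest in hybridisations 25 and 26 and lowest in hybridisation 21. Histone H2A genes hta1 (mean 0.23) and hta2 (0.19) were 2 of 10 histone genes to meet the rule. Of 68 amino acid synthesis genes 4 were above 0, namely arg1 (0.34), eca39 (0.23), pro2 (0.14) and aro1 (0.13), and ser1 (-0.10) was below. Over all identifiers, 2.21% met the rule above 0 and 1.72% below. The rule also took the ubiquitin fusion genes ubi5 (0.36) and ubi3 (0.31), the uracil synthesis gene ura4 (0.25), the purine gene ade5 (0.21) and the splicing gene prp1 (0.15 ± 0.03, the smallest SD above 0).

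Of the members below 0, 16 of 85 (18.8%) were in any of the gene lists and of those above 0, 58 of 109 (53.2%), where 24.1% of all identifiers were. The lists were chosen with earlier results of these data known, so nothing is read from these shares. After ctr4, ctr5 and gst2 the lowest was rfc1 (SPBC23E6.07C), the large subunit gene of the DNA polymerase clamp loader, at -0.71, -0.41 and -0.19 in hybridisations 21 to 28 and -0.24, 0.00 and 0.40 in the other 20. Its 2 probes differed in size, with means of -0.69 and -0.16. emc7, a subunit gene of the ER membrane protein complex, had -0.67, -0.34 and -0.21, against -0.03, 0.30 and 0.93. vps38, which encodes a subunit of a vacuolar sorting lipid kinase complex, had -0.51, -0.38 and -0.28, against -0.14, 0.18 and 0.48. Both of these stood clear of the other 20, whereas rfc1 overlapped them.

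The forkhead factor gene sep1, which acts in mitotic transcription, had a mean of -0.35 with the largest SD below 0, 0.25. It followed the quartets, with a mean of -0.57 in hybridisations 21, 22, 27 and 28 and -0.12 in hybridisations 23 to 26. mrs2, named after a mitochondrial magnesium channel of budding yeast, had -0.54, -0.31 and -0.10, and overlapped the other 20 (-0.29, 0.02 and 0.62). oxa102, an insertase gene of the mitochondrial inner membrane, had -0.49, -0.28 and -0.20, against -0.07, 0.16 and 0.79, without overlap. Among RNA polymerase I and III genes, rrn3 (-0.24) and rpc19 (-0.11) were below 0, of 28 measured (1.72% over all identifiers). The sulphate carrier gene sul1 (-0.21), the polyphosphate synthesis gene vtc4 (-0.25) and the Ras GTPase-activating gene gap1 (-0.30) were further members. Lists without any member were the respiratory chain (48 genes, median 0.04), the tricarboxylic acid cycle (18 genes, 0.06), cell wall synthesis (22 genes, 0.01), nitrogen-regulated genes (17 genes, -0.02) and thiamine-repressed genes (10 genes, -0.03), among others. Of 118 meiotic genes mug129 was the only member, below 0. With 2.21% of all identifiers meeting the rule above 0 and 1.72% below, nothing is read from these counts.

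By range, 29 of the 109 members above 0 (26.6%) lay above every one of the other 20 arrays, against 70 of all 4929 identifiers (1.42%). Of the 85 members below 0, 15 (17.6%) lay below every one of them, against 55 of all identifiers (1.12%). The rule used the values of the 8 arrays, so these shares are descriptions. They also rest on the deposited signs: with the sign of the other 20 arrays turned, 19 members above 0 (17.4%) and 12 below (14.1%) lay outside, against 1.42% and 1.79% of all identifiers, and none of them was among the 29 and 15. With each probe on its own the numbers were 16 above and 2 below, ctr4 and SPBC25B2.08, against 19 and 7 of all 4929 identifiers. A stricter contrast, above 0 in all 8 arrays and below 0 in all of the other 20, held for 19 members, among them fio1, fip1, sod1, hsp104, hsp78, ssa1, mcp60, gpd1, tps3, ntp1, atf1 and ish1, while 4.36% of all identifiers were below 0 in all of those 20. Below 0 in the 8 and above 0 in the other 20 were SPBC25B2.08 (means -0.28 and 0.45) and dpm3 (-0.19 and 0.58), a subunit gene of dolichol-phosphate-mannose synthase, while 4.14% of identifiers were above 0 in all 20. With the sign of the other 20 turned, these 19 and 2 genes would share a side in all 28 arrays; hsp104 would then have means of 0.87 and 0.86 and sod1 of 0.78 and 0.54, with overlap.

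Other members kept their side in all 28 arrays, 11 above 0 and 5 below. Over all identifiers, 4.14% were above 0 and 4.36% below 0 in all of the other 20 arrays, and these counts are descriptions. Those above 0 were led by rpl42 (means 0.42 and 0.42), ubi5 (0.36 and 0.32), rps2401 (0.33 and 0.26) and ubi3 (0.31 and 0.54), and included rps2402, rpl3202, pex7, dss1, eca39 and lsm5. Below 0 in all 28 were gap1 (-0.30 and -0.20), abp2 (-0.29 and -0.56), sul1 (-0.21 and -0.24), eti1 (-0.20 and -0.22) and mtl2 (-0.17 and -0.20). With the deposited signs these genes did not differ in side between the 8 arrays and the other 20, and with the turned sign they would. abp2, which encodes a replication origin binding protein, was nearer to 0 in hybridisations 21 to 28 than in the others.

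The other 20 arrays, which the rule did not use, were tested by limma for a mean different from 0, with Benjamini-Hochberg adjustment over 4929 identifiers. This test takes arrays as independent, which they are not, so its p-values are too small, and a fit with the 2 earlier sets (hybridisations 1 to 8, 19 and 20, and hybridisations 9 to 18) as a random block stands beside it. Of the 109 members above 0, 33 (30.3%) were called above 0 in the other 20 by limma and 41 (37.6%) below 0, where 30.7% and 24.0% of all identifiers were, and 35 were not called. With the block these were 10 (9.2%) and 20 (18.3%), where 2.54% and 3.00% of all identifiers were. Of the 85 members below 0, 19 (22.4%) were called above 0 and 17 (20.0%) below, and 4 and 4 with the block. Among members above 0, the 30.3% called above 0 without the block was near the 30.7% of all identifiers, so nothing is read from it. By limma with the block, fio1 had an adjusted p of 1.16e-11, fip1 2.57e-08, hsp104 0.00426, sod1 0.00189, gpd1 0.000138 and ctr4 0.00251 in the other 20 arrays, and rpl42 0.00994 and ubi3 0.000496 on the positive side. By limma with the block, ctr5 (adjusted p = 0.0719), str1 (0.0525) and sti1 (0.114) were not called. With only 2 sets, which the labels do not give, the block is poorly estimated. The p-values with the block may therefore also be too small, and no side is taken as settled by them.

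Agreement between the probes was read in the other 20 arrays, since the rule had used it in the 8. The correlation of a gene's 2 probes across these 20 arrays had a median of 0.573 among members above 0, 0.504 among members below and 0.404 over all identifiers. It was over 0.5 in 64 and 43 members. Probes of sti1 (0.97), fio1 (0.96), gst2 (0.96), ctr4 (0.95) and sod1 (0.92) moved closely together, whereas those of tps1 (0.18), vps38 (0.17) and eca39 (-0.25) did not. These correlations describe arrays that share sets, and carry no test.

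Members lay on all 3 chromosomes. Chromosomes I, II and III held 41.9%, 42.9% and 15.2% of the placed members above 0, 45.1%, 40.2% and 14.6% of those below, and 45.6%, 36.6% and 17.8% of all placed genes. The median gene length was 1974 bases above 0, 2171.5 below and 1811 over all genes, and across genes the Spearman correlation of length with the mean over the 8 arrays was -0.089. Adjacent members formed 8 pairs, 4 of them on the same side: fip1 with fio1, cul1 with slt1 and rps2402 with cnt5 above 0, and vps38 with any1 below.

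Array quality touched the edges of the rule. Hybridisation 27 was deposited with a median of -0.293, against medians between -0.023 and 0.007 in the other 7, and without centring 25 genes instead of 109 met the rule above 0. A total of 13 probes of 10 genes were left out of the rule for a value above 3 in any of the 8 arrays, but the gene lists were not filtered for them. They were probes of the elongation factor genes tef101, tef102 and tef103, the proton pump gene pma1, the ribosomal protein genes rps901, rpl1201, rpl18 and rpl802, SPCC576.17C and an identifier without a name. In hybridisation 25, 12 of the 13 probes were above 3 with a median of 4.86, in hybridisation 26 4 were, in hybridisation 28 3 and in hybridisation 27 2. In hybridisations 23 and 24 the same probes had medians of -0.051 and -0.055. Probes of different genes shared an identical value there, -0.0557 in hybridisation 23 and -0.0553 in hybridisation 24, tef101 and tef102 among them in both arrays. These values may therefore not be ordinary readings, and the cause was not tested. Spot intensities were not used, so signal over background is unknown, and the number of arrays limits the precision.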

How the data were processed

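Per the labels' protocols, RNA from a hot phenol extraction was copied from oligo dT with Cy3 or Cy5, slides went through a GenePix 4000A scanner and GenePix Pro 4.0, and after background correction flagged and dim features (under 2 times background in either channel) were dropped. The deposited values are the authors' log2 ratios, 9858 probes with 2 for each of 4929 identifiers and none missing. The channel on top, dye swaps and any array normalization are not stated in the labels used here. Samples called independent in the labels serve as replicates.

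From every array its own median was subtracted, and both probes of an identifier were averaged. Genes with a probe above 3 in any of the 8 arrays were left out of the members, of the correlations between arrays and of that with gene length. The gene lists and the counts over all 4929 identifiers were not filtered for these 10 genes. Names came from the platform annotation (4816 identifiers with 1 gene, 22 with several, 91 with none), of which 4791 were found in RefSeq (ASM294v3). Means of the other 20 arrays were tested against 0 (limma 3.58.1 under R 4.3.3, lmFit and robust eBayes, threshold 0.05), and with the sets as a random block (duplicateCorrelation, 0.4527). The script was tested on simulated data.

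The members and the 47 gene lists were chosen with earlier results of these data known, and 26 symbols caught by name patterns but of another role were taken off after values were seen. Named were the 15 highest and 15 lowest means, the 10 largest differences on each side without overlap, up to 4 members a side in each list, all iron, copper, zinc, defence and glutathione genes, the genes nearest the threshold and those left out, leu1 and act1. Others named were chosen after their values were seen. Alternatives were other centring, scaling, probe and array choices. Member sequences were not used here.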

Additional observations from a re-analysis of the deposited data

Results flagged for a closer look

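Among 204 named genes and gene lists tested over the 8 arrays, 12 genes had a highest or lowest array set apart from the nearest other by more than the critical share of the whole range in Dixon's test. Chance gives about 1 in 20, which is near the share found, so no single flag is read as a result. Above the other 7 arrays were sib2 (ferrichrome synthesis) with 0.41 in hybridisation 24, gst3 with 0.28 in hybridisation 23, the peroxiredoxin gene pmp20 with 0.45 in hybridisation 21, the copper chaperone gene atx1 with 0.09 in hybridisation 21, the pseudouridine synthase gene cbf5 with 0.27 in hybridisation 28, the zinc-responsive repressor gene loz1 with 0.13 in hybridisation 24 and lsm5 with 0.36 in hybridisation 25. Below the other 7 were the iron-sulphur scaffold gene isu1 with 0.11 in hybridisation 22, grx3 with -0.42, oxa102 with -0.49 and SPBC405.02C with -0.62, all in hybridisation 28, and abp2 with -0.61 in hybridisation 21. Hybridisation 28 held 4 of the 12. For loz1 the first probe stayed below 0 in all 8 arrays (highest -0.06), and only the second rose above it (highest 0.32).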

How the results depend on the processing

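No paired analysis was possible because the arrays form 1 group and a hybridisation number names an array, not a pair. The count of members above 0 (109) became 25 without centring, since hybridisation 27 was deposited off centre. Members above and below 0 numbered 365 and 448 with the mean of both probes, 286 and 345 with the first probe, 277 and 358 with the second, 456 and 352 in hybridisations 21, 22, 27 and 28 alone, 512 and 423 in hybridisations 23 to 26 alone, which follows from fewer values having to share a side, and 30 and 11 with every value at least 0.1 from 0. Leaving out 1 array at a time gave 117 to 161 above and 98 to 127 below. Members outside the range of the arrays compared (29 above, 15 below) numbered 45 and 48 against hybridisations 1 to 8, 19 and 20 alone. The share over all identifiers is not given for that comparison, so nothing is read from it. With the sign of the other 20 turned, members outside numbered 19 and 12, none of them among the 29 and 15. By each of both probes, an alternative chosen after seeing the data, they numbered 16 and 2, against 19 and 7 of all identifiers. With the sets as a random block, limma called 125 identifiers above 0 (1514 without it) and 148 below (1184 without it), and with only 2 sets the block is poorly estimated; the cause of this drop was not tested. Of the named means recomputed, 49 moved by more than the spread and 2306 did not, and of list medians 40 did and 242 did not. No member's mean changed side under any of these, but on the centred values the rule itself fixes that side, so this shows nothing. Of other named genes, 79 alternative means of 35 genes changed side, and 37 alternative medians of 24 lists did. Depth per spot is unknown.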

Other observations

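Genes of eisosomes, furrows of the plasma membrane, were members that no list held, and they were picked after their values were seen. fhn1 had 0.27, 0.50 and 0.69 (lowest, median, highest) in hybridisations 21 to 28 and -0.60, -0.40 and 0.01 in the other 20 arrays. The core component gene pil1 had 0.23, 0.30 and 0.45, against -0.60, -0.31 and -0.01, and eis1 had 0.31, 0.44 and 0.62, against -0.52, -0.23 and -0.01. With the deposited signs, none of the 3 overlapped between the sets.

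Genes without a member's probe agreement also separated the sets by each of both probes, with the deposited signs. Above the other 20 arrays were frp1, psi1 and ppe1 (difference of means 0.38), and below them pcl1 (-0.68), rps3002 (-0.55), SPAC1039.02 (-0.92), SPBC3H7.05C (-0.94) and SPBPB10D8.01 (-0.50).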
